A study of Solanum lycopersicum and Solanum pennellii with 32 samples.

Results

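In M82 tomato roots, 177 genes responded differently to limiting phosphate at the tip and in the middle of the root, and these genes are described here by their levels in the 4 groups. The comparison used the 16 M82 libraries of the 32 libraries of the series. They were chosen by their labels: cultivar M82 of Solanum lycopersicum, root tip or root midsection, sufficient or limiting phosphate, with 4 biological replicates in each of the 4 groups. Tip material was a 1 cm segment, and midsection material was about 2 cm taken midway along the root. Every group, the controls included, carried a 35S:TRAP construct, in which the 35S promoter, a viral promoter that is active in most plant cells, drives a tagged ribosomal protein. Seedlings were 8 to 10 days old, and each replicate pooled 30 to 40 plants, so no value belongs to a single root. The labels describe total RNA, and the values are treated as total RNA. The contrast was the change with limiting phosphate in tips minus the change with limiting phosphate in midsections, called the interaction below, and a positive value means a higher response in the tip.

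Phosphate is poorly mobile in soil, and plants that run short of it raise uptake, release phosphate from organic compounds, economise on phosphorus in their membranes and change root growth. The root tip holds the root cap, the dividing meristem and the cells that begin to elongate, and in Arabidopsis contact of the tip with low phosphate is what arrests growth of the primary root. The midsection is older tissue with mature vascular strands, endodermis and root hairs, where much of the uptake and long-distance transport takes place. A gene can therefore be raised or lowered by phosphate at 1 of these positions, at both, or in opposite directions.

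The 16 libraries held 1084652 to 34103546 counts, and 3 counts, the smallest number taken as a detection floor, corresponded to 0.0880 to 2.77 CPM, the count scaled to the library total. No 2 M82 columns were identical. The gene IDs of the table could not be paired with names: 0 of 34843 occurred in the reference table of gene names, so genes are given by ID, no function is stated, and neither the root cap, meristem, endodermis, xylem and other tissue markers nor the lists of phosphate, hormone and cell wall genes could be looked up. The typical biological coefficient of variation between replicates of a group was 0.596. Counts of reads from bulk tissue cannot tell fewer cells of a type from less RNA in each cell, and this holds for every level below.

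The phosphate response differed between tip and midsection in 177 of 18275 genes tested (0.969%; edgeR quasi-likelihood interaction test, Benjamini-Hochberg adjusted p under 0.05, 4 groups of 4 libraries). The response was higher in the tip in 118 genes (0.646% of those tested) and lower in the tip in 59 (0.323%). The median interaction was 3.14 on the log2 scale among the 118 and -2.38 among the 59, against 0.02 over all genes tested. Most were of higher level than the average gene, with a median of 165 CPM in their highest group against 30.5 CPM for all genes tested, although 4 of them had a group with no count in any of its libraries. The count depended on single libraries: it was 289 without sufficient midsection replicate 1, where 145 genes were higher and 144 lower in the tip, 113 without sufficient midsection replicate 4, 110 without limiting midsection replicate 2 and 100 without limiting midsection replicate 3. The genes with a higher response in the tip numbered 69 to 78 without sufficient midsection replicate 4 or limiting midsection replicates 1, 2 or 3. Those with a lower response numbered 31 to 38 without limiting tip replicates 2 or 4, sufficient midsection replicate 4, or limiting midsection replicates 2, 3 or 4. DESeq2 called 514 genes.

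The 177 genes were sorted by whether the tip response and the midsection response, each tested in the same fit, were called and in which direction. Of the 118, 69 rose in the tip alone, 19 fell in the midsection alone, 5 rose in the tip and fell in the midsection, 2 rose at both positions and more in the tip, and 23 were called at neither position. Of the 59, 35 rose in the midsection alone, 8 fell in the tip alone, 5 rose at both positions and more in the midsection, and 11 were called at neither position. A fall in the tip and a rise in the midsection were called together in 0 genes, and in 4 without sufficient midsection replicate 1. Over all genes tested, 1.22% were called up and 0.202% down in the tip, and 0.958% up and 0.471% down in the midsection. The sorting reuses the libraries of the interaction, so these counts describe the 177 genes and test nothing further.

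**Figure D1:**
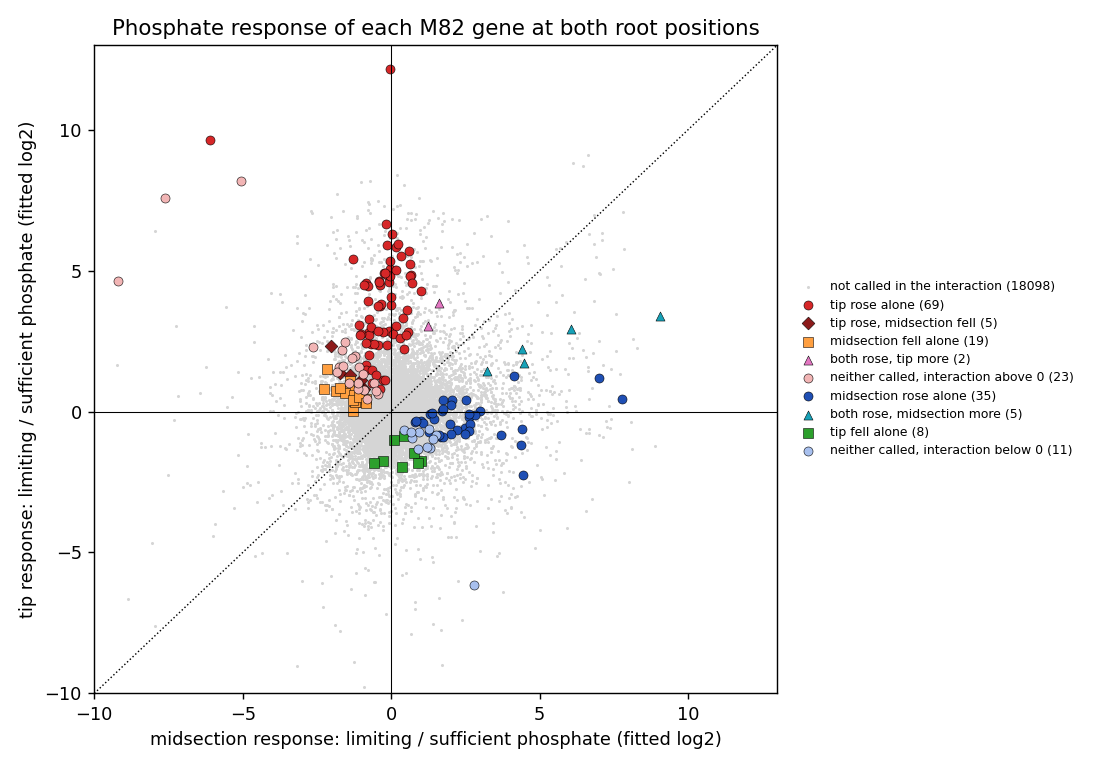
Fitted log2 change with limiting phosphate in midsections (horizontal axis) and in tips (vertical axis) for 18275 genes, with equal responses on the dotted line. Grey points are the 18098 genes not called in the interaction, and coloured markers are the 177 called genes by pattern. Most of the 69 genes that rose in the tip alone lie near the vertical axis. Most of the 35 that rose in the midsection alone lie near the horizontal axis.

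The most frequent pattern was a rise in the tip, from far below the midsection towards its level. Among the 69 genes that rose in the tip alone, the median tip response was 3.79 (25th to 75th percentile 2.73 to 4.92) and the median midsection response -0.21 (25th to 75th percentile -0.66 to 0.07) on the log2 scale. Sufficient tips were the lowest of the 4 groups in 67 of them, as they were in 36.2% of all genes tested, and the sorting favours this order. The median of their group means was 2.78 CPM in sufficient tips, 42.2 CPM in limiting tips, 77.1 CPM in sufficient midsections and 64.8 CPM in limiting midsections. The 2.78 CPM is close to the floor of sufficient tip replicates 3 and 4, 1.93 and 2.13 CPM. In 64 of the 69 all limiting tips lay above all sufficient tips, which held for 3.91% of all genes and which the sorting by this test favours. Leaving out any 1 library gave 49 to 80 genes in this pattern.

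Solyc02g090210.3.1 had the smallest interaction p of the genes in this pattern that could be named by the rule. It stood at 2.14, 1.51, 1.27 and 2.35 CPM in sufficient tips and at 67.7, 86.5, 123 and 127 CPM in limiting tips, replicates 1 to 4 in order. In midsections it stood at 104, 146, 125 and 136 CPM with sufficient and 149, 147, 115 and 158 CPM with limiting phosphate. The tip libraries were thus separated by phosphate without overlap, whereas the midsection libraries overlapped. The ratio of mean CPM between limiting and sufficient phosphate was 55.6 in tips and 1.12 in midsections, with an interaction of 5.68 ± 0.45 (log2, SE; edgeR adjusted p 6.16e-10). Its sufficient tip replicates 3 and 4 held 2 and 3 counts, at or below the floor of 3 counts, so the 55.6 is imprecise. In Solyc06g076800.3.1, too, sufficient tips were the lowest group. It stood at 5.77, 1.96, 5.72 and 0.783 CPM in sufficient tips and 88.1, 90.0, 135 and 131 CPM in limiting tips. Its midsection values were 157, 189, 118 and 240.3 CPM at sufficient and 179, 173, 130.0 and 199 CPM at limiting phosphate, again overlapping. The ratio was 31.2 in tips and 0.966 in midsections, and the interaction 5.05 ± 0.49 (edgeR adjusted p 9.42e-08). Sufficient tip replicate 4 held 1 count of this gene, below the floor, so the 31.2 is imprecise as well. By mean level, limiting midsections were 1.41 and 1.53 times limiting tips in these genes, differences that were not called (edgeR adjusted p 0.303 and 0.247). Sufficient tips were 70.1-fold and 49.5-fold below sufficient midsections (edgeR adjusted p 1.21e-13 and 3.45e-12), folds that rest on the same low counts in sufficient tips.

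In 5 genes the responses were opposite, a rise in tips against a fall in midsections, and in a further 19 only the fall in the midsection was called. In the 5, sufficient midsections were the highest group and sufficient tips the lowest in every gene. Over all genes tested these shares were 27.5% and 36.2%, and the sorting favours this order. Solyc11g020040.2.1 stood at 14.5, 15.2, 13.3 and 7.83 CPM in sufficient tips and rose to 39.2, 19.9, 31.3 and 45.3 CPM in limiting tips. In midsections it fell from 131, 211, 279 and 323 CPM to 41.6, 87.1, 83.3 and 75.7 CPM. Neither position had overlapping libraries, so limiting phosphate moved the 2 positions towards each other. The ratio was 2.67 in tips, and midsections fell 3.28-fold (interaction 3.09 ± 0.47, edgeR adjusted p 0.00022). Solyc02g083810.3.1 behaved alike, with 13.7, 17.1, 11.4 and 5.48 CPM in sufficient and 18.4, 33.4, 25.5 and 47.9 CPM in limiting tips. Its midsections held 295, 379, 471 and 398 CPM at sufficient and 146, 116, 148 and 184 CPM at limiting phosphate, again without overlap at either position. Its tips rose 2.63-fold and its midsections fell 2.60-fold (interaction 2.69 ± 0.41, edgeR adjusted p 0.000228). The other 3 genes of this pattern, named because they complete a count of 5, were Solyc03g119060.3.1, Solyc01g111630.3.1 and Solyc04g009960.3.1. In Solyc03g119060.3.1 the means were 103 and 182 CPM in sufficient and limiting tips and 1276 and 680.1 CPM in midsections. In Solyc01g111630.3.1 they were 25.2 and 54.7 CPM in tips and 676 and 336 CPM in midsections. Solyc04g009960.3.1 had 11.6 and 59.6 CPM in tips and 99.8 and 24.7 CPM in midsections, so that limiting tips were above limiting midsections by mean level, a difference that was not called (edgeR adjusted p 0.12). All 5 calls of the interaction held without any 1 library and under every other setting, but the sorting did not: without limiting tip replicate 4 the tip rise and midsection fall were called together in 0 genes, without sufficient tip replicate 4 in 1, without limiting tip replicate 1 or limiting midsection replicate 3 in 2, and without sufficient midsection replicate 4 or limiting midsection replicates 1 or 2 in 3.

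The 19 genes that fell in the midsection alone had a median midsection response of -1.29 (25th to 75th percentile -1.47 to -1.18) and a median tip response of 0.65 on the log2 scale. Sufficient midsections were the highest group in 18 of them, against 27.5% of all genes, and the sorting favours this order. Solyc07g056540.3.1 stood at 936, 1127, 991 and 1184 CPM in sufficient midsections and at 444, 445, 419.8 and 559 CPM in limiting ones. In tips it held 115, 106, 115 and 80.6 CPM at sufficient and 134, 200.2, 145 and 177 CPM at limiting phosphate. The midsection libraries fell without overlap, and the tip libraries also did not overlap but in the other direction, a difference of 0.65 ± 0.19 (log2, SE) that was not called (edgeR adjusted p 0.0936). Midsections fell 2.27-fold and the interaction was 1.84 ± 0.27 (edgeR adjusted p 0.000135). Solyc07g040680.3.1 fell 4.52-fold in midsections, from 153 ± 48.3 to 34.0 ± 13.8 CPM (SD, n = 4 each), and averaged 5.0 ± 3.27 and 15.3 ± 6.49 CPM in sufficient and limiting tips (interaction 3.66 ± 0.65, edgeR adjusted p 0.00151). Its interaction missed the threshold with limma-voom and quality weights, at an adjusted p of 0.106. All limiting midsections lay below all sufficient ones in 17 of the 19 genes, against 4.91% of all genes tested, which the sorting by this test favours. The size of this pattern rested on single libraries, with 45 genes without sufficient tip replicate 4, 34 without sufficient midsection replicate 1, 30 without sufficient tip replicate 2, and 7 without sufficient midsection replicate 4 or any of limiting midsection replicates 1, 2 and 3.

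Among genes with a lower response in the tip, a rise confined by the test to the midsection was the most frequent pattern, with 35 genes. Their median midsection response was 2.05 (25th to 75th percentile 1.65 to 2.75) and their median tip response -0.35 (25th to 75th percentile -0.72 to 0.02) on the log2 scale. Sufficient midsections were the lowest group in 34 of the 35, against 33.7% of all genes tested, and the sorting favours this order. Solyc01g103390.3.1 stood at 156, 117, 46.5 and 94.2 CPM in sufficient midsections and at 587, 569.6, 693 and 718 CPM in limiting ones. In tips it held 444, 729.5, 449.7 and 523 CPM with sufficient and 409, 650.0, 426 and 407 CPM with limiting phosphate, and the tip groups overlapped. Limiting midsections reached the range of the tips: the ratio was 6.20 in midsections and 0.882 in tips (interaction -2.80 ± 0.36, edgeR adjusted p 1.56e-05). Solyc10g086090.2.1 stood at 14.5, 15.5, 23.3 and 19.5 CPM in sufficient and 138, 81.7, 103 and 80.7 CPM in limiting midsections. Its tips held 40.8, 57.5, 92.7 and 101 CPM at sufficient and 58.2, 42.4, 55.1 and 37.7 CPM at limiting phosphate. The midsection groups did not overlap and the tip groups did. Sufficient tips were 4.01-fold above sufficient midsections, and limiting midsections were 2.08-fold above limiting tips (edgeR adjusted p 5.96e-05 and 0.0397). Its interaction was -3.08 ± 0.49 (edgeR adjusted p 0.000433). All limiting midsections lay above all sufficient ones in each of the 35 genes, against 5.89% of all genes, a separation that the sorting by this test favours. The pattern held 81 genes without sufficient midsection replicate 1, and 19 to 23 without sufficient tip replicate 3, limiting tip replicates 2 or 4, sufficient midsection replicate 4, or limiting midsection replicates 2, 3 or 4.

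In 5 genes limiting phosphate raised the level at both positions, but more in the midsection. Solyc12g009480.2.1 rose in midsections from 31.6, 26.8, 38.2 and 12.5 CPM to 521, 467, 646 and 596 CPM. In tips it rose from 27.6, 51.4, 43.8 and 62.6 CPM to 123, 195, 236 and 305 CPM. No libraries overlapped between phosphate levels at either position, and the ratio was 20.5 in midsections and 4.63 in tips (interaction -2.17 ± 0.42, edgeR adjusted p 0.00496). Solyc03g098010.3.1 rose from 2.34, 2.78, 0.931 and 3.25 CPM to 136, 115, 223 and 214 CPM in midsections. In tips it rose from 11.5, 2.56, 7.62 and 7.83 CPM to 26.1, 42.6, 85.5 and 63.3 CPM. Phosphate levels did not overlap at either position. Its ratio was 74.1 in midsections and 7.36 in tips (interaction -3.12 ± 0.63, edgeR adjusted p 0.00759), and the call was lost with limma-voom, with and without quality weights, where the largest adjusted p was 0.384. Sufficient midsection replicate 3 held 1 count of this gene, below the floor, so the 74.1 is imprecise. Both genes were somewhat higher in the tip at sufficient phosphate, 1.70-fold and 3.18-fold (edgeR adjusted p 0.0485 and 0.0217), and higher in the midsection at limiting phosphate, 2.60-fold and 3.17-fold (edgeR adjusted p 0.00125 and 0.00558). The 2 genes that rose more in the tip, named for their small number, were Solyc05g052360.2.1 and Solyc10g076220.2.1. Solyc05g052360.2.1 had means of 52.9 and 427 CPM in sufficient and limiting tips and 220.5 and 529 CPM in midsections. Solyc10g076220.2.1 had 3.90 and 64.5 CPM in tips and 68.4 and 207 CPM in midsections. Without any 1 of limiting tip replicates 3 and 4, sufficient midsection replicates 2, 3 and 4 and the 4 limiting midsection libraries, that pattern held 0 genes. It held 1 gene without sufficient tip replicates 3 or 4 or sufficient midsection replicate 1. The genes that rose more in the midsection numbered 3 without sufficient tip replicate 1, limiting tip replicate 3 or limiting midsection replicates 3 or 4.

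In 8 genes the tip fell and no change was called in the midsection. Sufficient tips were the highest group in all 8, as they were in 4743 of all 18275 genes tested, and the sorting favours this order. The median of the 8 genes was 727 CPM in sufficient tips and 301 CPM in limiting tips. Solyc05g015300.3.1, among the more abundant, stood at 2117, 2902, 2282 and 3444 CPM in sufficient tips and 1050.1, 1249, 853 and 759.7 CPM in limiting tips. In midsections it held 105, 60.3, 57.7 and 28.9 CPM at sufficient and 132, 119, 107 and 76.4 CPM at limiting phosphate, with overlap. The tip libraries did not overlap and fell 2.75-fold (interaction -2.24 ± 0.38, edgeR adjusted p 0.002), yet limiting tips remained 9.01-fold above limiting midsections (edgeR adjusted p 1.90e-08). Solyc04g005290.3.1 fell 3.89-fold in tips, from 443 ± 274 to 114 ± 14.4 CPM, and averaged 26.4 ± 8.46 and 34.7 ± 1.89 CPM in sufficient and limiting midsections (SD, n = 4 each; interaction -2.34 ± 0.45, edgeR adjusted p 0.00469). Its call was lost with limma-voom, with and without quality weights, where the largest adjusted p was 0.0835. All limiting tips lay below all sufficient tips in each of the 8 genes, against 2.33% of all genes tested, which the sorting by this test favours. The pattern held 17 genes without sufficient midsection replicate 1, 15 without sufficient tip replicate 1, and 5 without sufficient midsection replicate 2 or limiting midsection replicates 2, 3 or 4.

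In 23 of the 118 and 11 of the 59 genes, the interaction was called but neither response on its own. Among the 23, the fitted change was above 0 in the tip in 23 and above 0 in the midsection in 0. Among the 11 it was above 0 in the tip in 0 and in the midsection in 11. Over all 18275 genes tested it was above 0 in the tip in 9434 and in the midsection in 8952. A called interaction with neither response called favours opposite signs, so these splits follow largely from the sorting. Solyc05g041200.3.1 averaged 18.2 ± 11.3 and 52.2 ± 26.7 CPM in sufficient and limiting tips and 244 ± 143 and 72.6 ± 17.3 CPM in sufficient and limiting midsections (SD, n = 4 each; interaction 3.35 ± 0.69, edgeR adjusted p 0.0153). Solyc08g013670.3.1 averaged 1.14 ± 0.310 and 5.29 ± 5.75 CPM in tips and 111 ± 45.0 and 34.9 ± 11.7 CPM in midsections in the same order (interaction 3.85 ± 0.81, edgeR adjusted p 0.0106). Its call was lost with limma-voom, with and without quality weights, where the largest adjusted p was 0.334. Sufficient tip replicates 3 and 4 held 2 and 1 counts of this gene, below the floor of 3 counts, so its sufficient tip mean is imprecise. Limiting tip replicate 1 stood at 13.7 CPM, and replicates 2 to 4 at 1.62, 1.40 and 4.47 CPM. In the opposite direction, Solyc03g120475.1.1 averaged 1271 ± 164 and 809 ± 134 CPM in tips and 274 ± 30.1 and 370.3 ± 50.4 CPM in midsections (interaction -1.09 ± 0.25, edgeR adjusted p 0.025). Solyc01g097270.3.1 averaged 138 ± 42.8 and 56.1 ± 15.6 CPM in tips and 18.4 ± 17.2 and 47.6 ± 12.2 CPM in midsections (interaction -2.61 ± 0.61, edgeR adjusted p 0.0277). The last pair was the least stable of the named genes. Solyc03g120475.1.1 lost its call without sufficient tip replicate 2, limiting tip replicates 2 or 4, sufficient midsection replicate 4, or limiting midsection replicates 2, 3 or 4, with a largest adjusted p of 0.0899. Solyc01g097270.3.1 lost it without sufficient tip replicate 2, limiting tip replicates 1, 3 or 4, sufficient midsection replicate 4, or limiting midsection replicates 1, 3 or 4, with a largest adjusted p of 0.0801. Among all 11 genes of that pattern, 0 were called in all of the fits without 1 library. The 11 became 35 without sufficient midsection replicate 1, 18 without sufficient midsection replicate 3, and 2 to 6 without sufficient tip replicate 4, limiting tip replicates 2 or 4, sufficient midsection replicate 4, or limiting midsection replicates 2, 3 or 4. The 23 became 10 to 13 without limiting tip replicate 4, sufficient midsection replicate 4 or any 1 limiting midsection library.

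**Figure D2:**
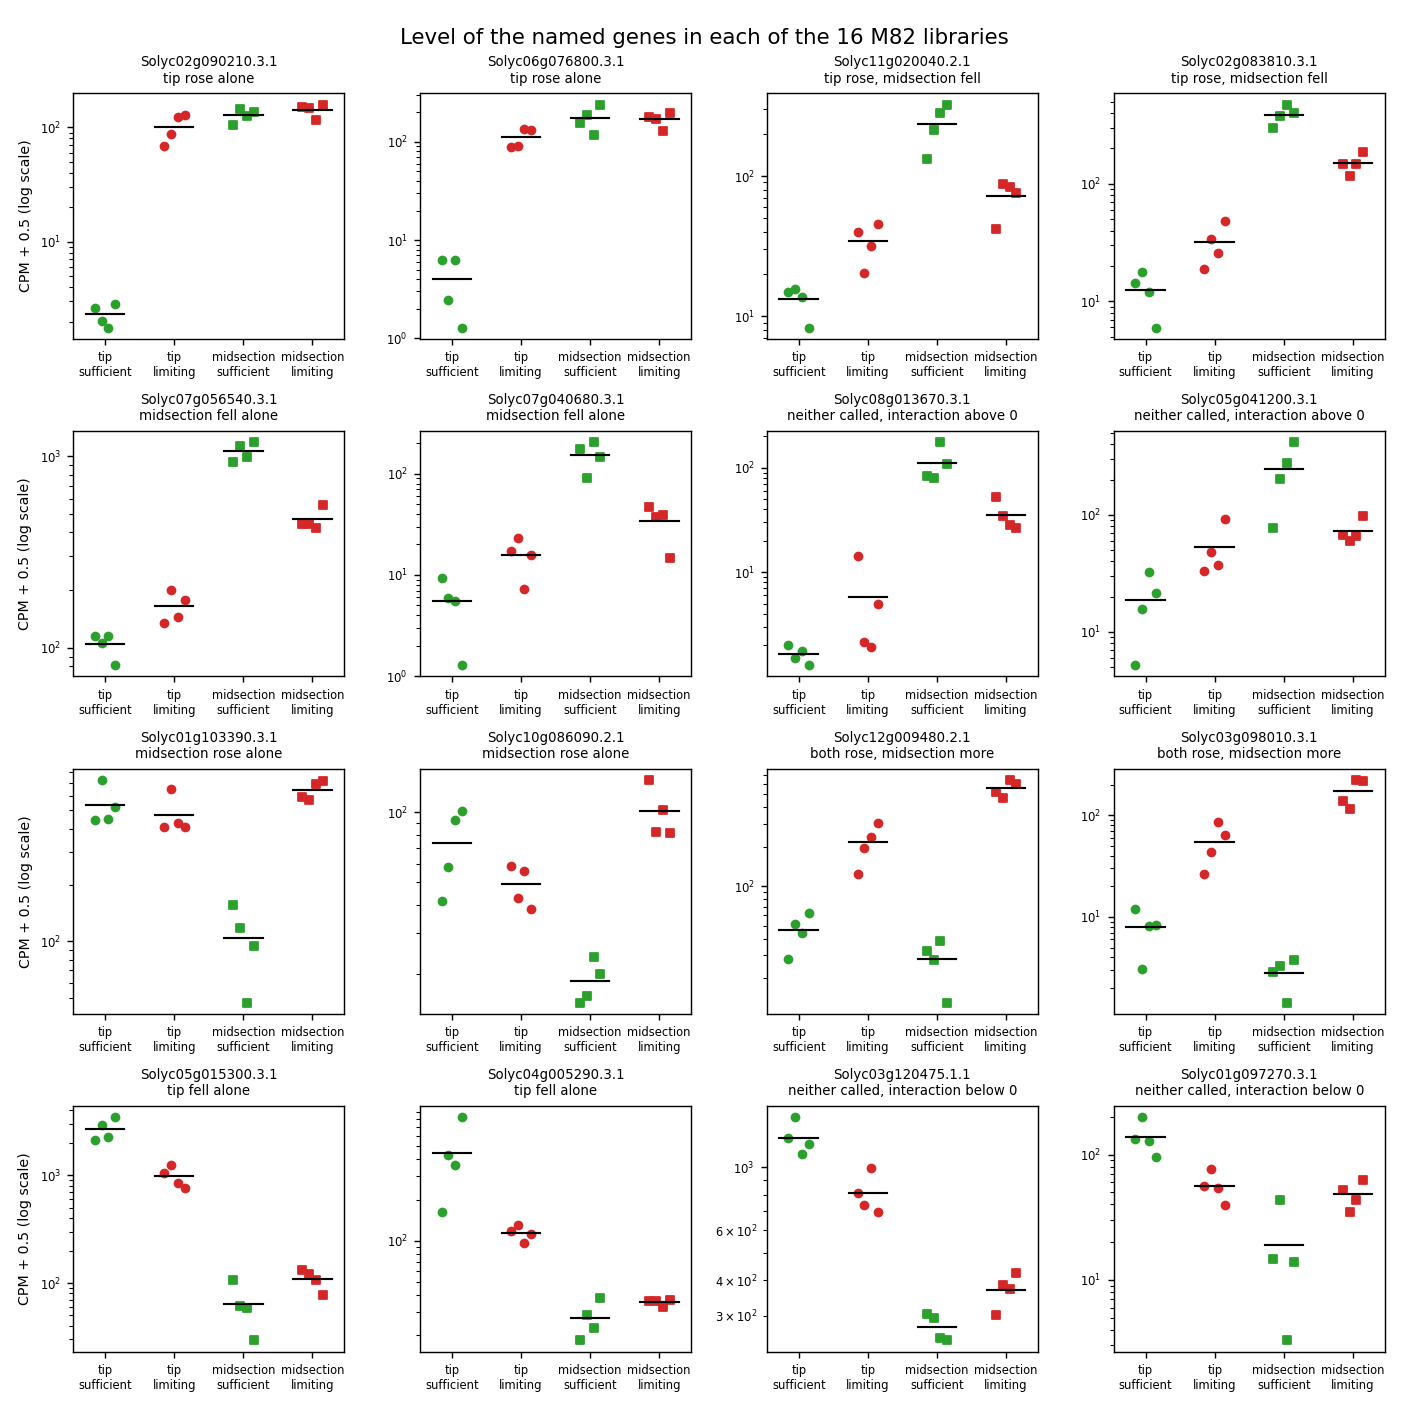
CPM + 0.5 on a log scale for the 16 named genes in each of the 16 M82 libraries, tips as circles and midsections as squares, sufficient phosphate in green and limiting in red, with the group mean as a bar. The top row shows genes that rose in the tip, such as Solyc02g090210.3.1 with 1.82 CPM in sufficient and 101 CPM in limiting tips, and the third row genes that rose in the midsection, such as Solyc03g098010.3.1 with 2.32 and 172 CPM.

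**Figure D3:**
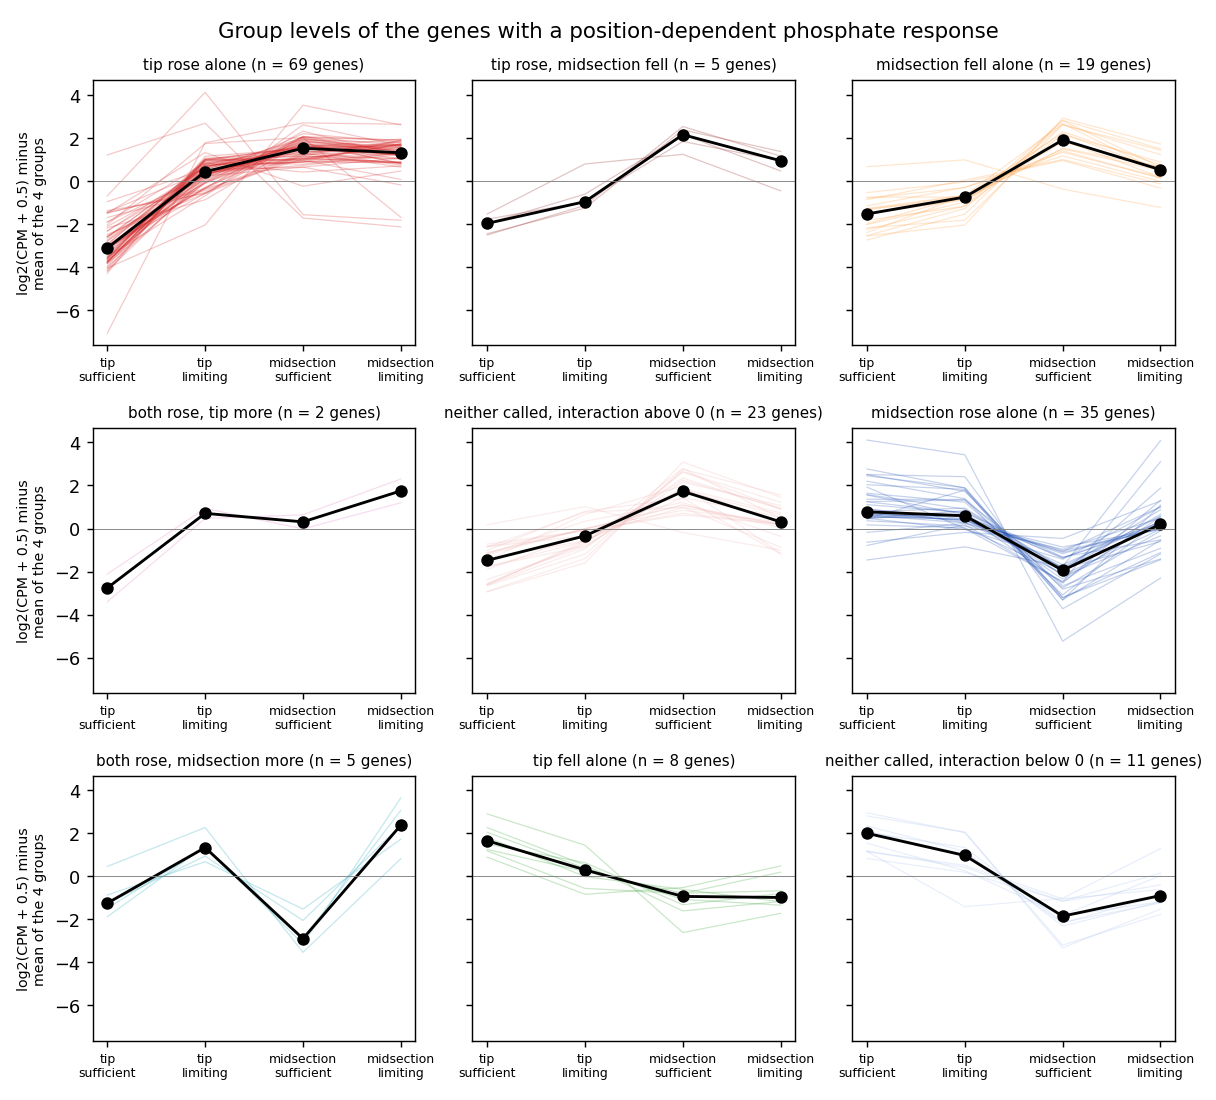
Mean log2(CPM + 0.5) of each called gene in the 4 groups, relative to the mean of the 4 groups, drawn as 1 line per gene in 1 panel per pattern, with the median over genes in black. Sufficient tips are the lowest group in 67 of the 69 genes that rose in the tip alone, and sufficient midsections in 34 of the 35 that rose in the midsection alone. The sorting into patterns favours these orders.

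The same contrast can be read as a change of the difference between positions, called the gap below. In 114 of the 118 genes with a higher response in the tip, sufficient tips were called below sufficient midsections (13.7% of all genes tested), and in 56 of the 59 they were called above (13.7%). With limiting phosphate, tips were called below midsections in 43 of the 118 (4.27% of all genes) and above in 27 of the 59 (6.17%). A gap that was called at sufficient and not at limiting phosphate was found in 69 of the 118 and 23 of the 59, and a gap in the same direction that was smaller at limiting phosphate in 43 and 27. Gaps that turned were 2 and 6, gaps that widened 2 and 0, and gaps called only at limiting phosphate 2 and 3. The interaction is the difference of the 2 gaps and shares all libraries with them, so these shares are a description. The kinds of gap were counted only among the 177 genes, so what is particular to these genes cannot be read from them. Over all 18275 genes tested, 4992 gaps were called at sufficient and 1908 at limiting phosphate.

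By size, the gap was smaller at limiting phosphate in 167 of the 177 genes and in 68.9% of all 18275. The median size of the gap among the 177 was 4.10 at sufficient and 1.13 at limiting phosphate on the log2 scale, against 0.98 and 0.61 over all genes. Called gaps numbered 4992 at sufficient and 1908 at limiting phosphate; with limma-voom and quality weights these counts were 5627 and 4293. Depth differed with phosphate: sufficient tip replicates 3 and 4 and sufficient midsection replicate 3 held 1553874, 1406650 and 1084652 counts. Every limiting library held at least 4223900, although the deepest library, with 34103546, was also a sufficient tip. What depth contributed to the size and number of the gaps was not tested. Over all genes tested, which cannot count as independent, the gaps at both phosphate levels, which share no library, had a Pearson correlation of 0.636.

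**Figure D4:**
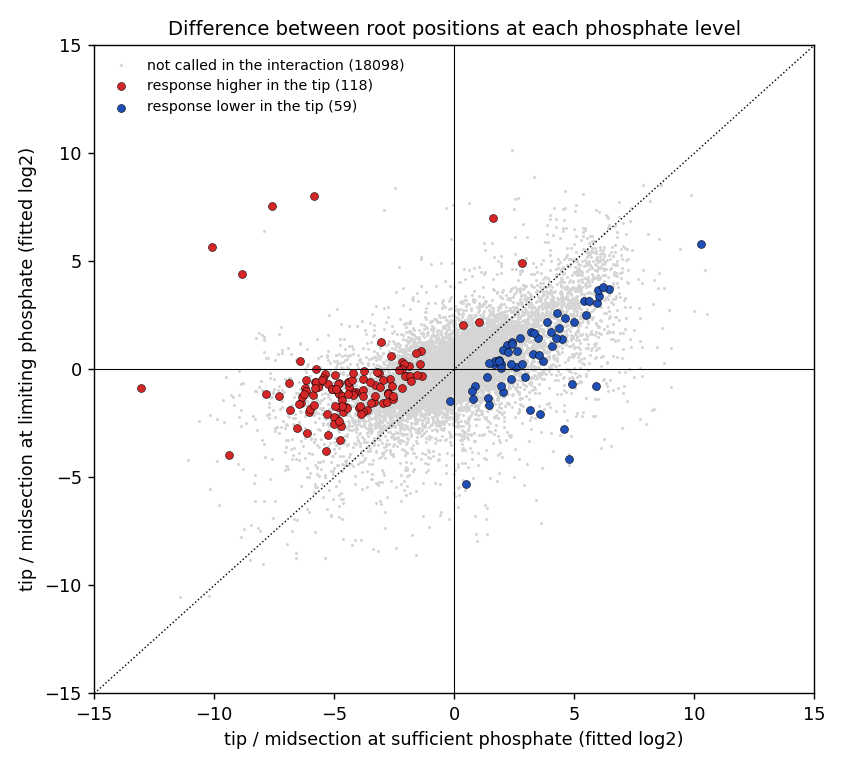
Fitted log2 ratio of tip to midsection at sufficient phosphate (horizontal axis) and at limiting phosphate (vertical axis), with equal gaps on the dotted line. Most of the 118 genes with a higher response in the tip (red) lie left of 0 and above the line, and most of the 59 with a lower response (blue) lie right of 0 and below it.

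Of the 177 genes, 83 were called without any 1 of the 16 libraries in turn, 56 of the 118 and 27 of the 59. They comprised 39 of the 69 that rose in the tip alone, 19 of the 35 that rose in the midsection alone, 10 of the 19 that fell in the midsection alone, 5 of the 5 with opposite responses, 5 of the 8 that fell in the tip alone, 3 of the 5 and 0 of the 2 that rose at both positions, and 2 of the 23 and 0 of the 11 called at neither position. Under all 24 other settings 50 were called, 28 of which had risen in the tip alone. Among these settings, the restriction to whole counts tested only 123 of the 177, so genes with fractional counts could not be among the 50. Fractional estimated counts, which leave the level of a gene uncertain, occurred in at least 1 M82 library in 54 of the 177 genes (30.5%) and in 28.2% of all genes tested. The 16 genes chosen by the naming rule had whole counts in every library.

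How far each M82 library as a whole resembled tips or midsections was scored with genes chosen in other libraries. In Solanum pennellii LA0716, a wild relative with the same 4 groups, called Pennellii below, 175 genes differed between tip and midsection over both phosphate levels (edgeR adjusted p under 0.05, 14 libraries). Of these, 66 higher in the tip and 99 higher in the midsection were tested in M82, and the score of an M82 library is the mean log2(CPM + 0.5) of the former minus that of the latter. The score was 2.57, 2.68, 2.73 and 3.78 in sufficient tips and 2.75, 2.93, 2.33 and 2.50 in limiting tips. In midsections it was 0.14, -0.36, 0.04 and -0.53 at sufficient and -0.05, -0.01, -0.32 and 0.04 at limiting phosphate. All tips scored above all midsections, and the phosphate groups overlapped at both positions. Limiting tips averaged 2.63 ± 0.27 and sufficient tips 2.94 ± 0.56 (SD, n = 4 each), a difference of -0.31 (exact permutation test, two-sided p = 0.457, adjusted over 4 comparisons 0.610; the smallest possible p is 0.0286). Without sufficient tip replicate 4, which stood apart at 3.78, the difference was -0.03. That library held 1406650 counts and the fewest M82 genes above 0, 14174. Its midsection genes averaged 1.34 on the log2 scale, against 2.44 to 2.73 in the other sufficient tips. What depth contributed to the score was not tested. Limiting and sufficient midsections differed by 0.09 (exact permutation test, two-sided p = 0.657, adjusted 0.657). Tips minus midsections gave 3.12 at sufficient and 2.72 at limiting phosphate (exact permutation test, two-sided p = 0.0286 each, the smallest possible; adjusted 0.0571). A p above the threshold does not show that the groups were alike. Of the 66 tip genes 1, and of the 99 midsection genes 0, were among the 177, counts near the 0.969% called over all genes tested. The score therefore does not describe the 177 genes. This score was chosen after the M82 values had been seen.

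**Figure D5:**
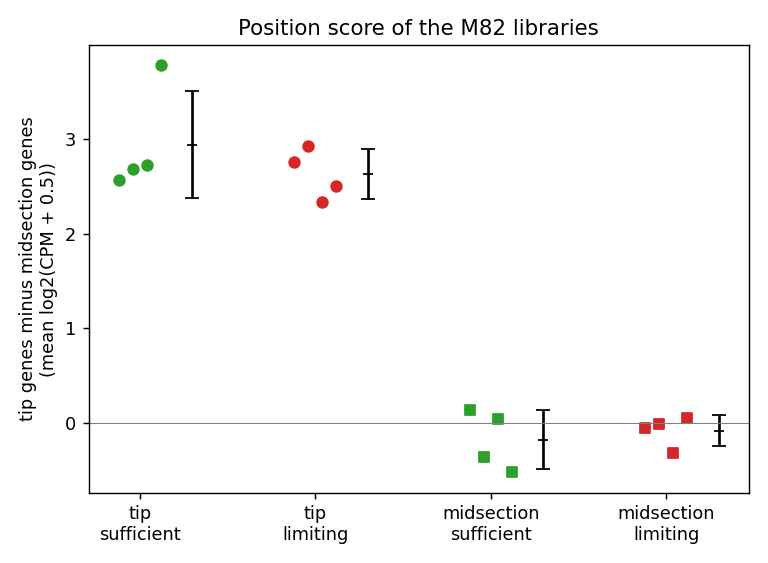
Position score of each M82 library, the mean log2(CPM + 0.5) of 66 tip genes minus that of 99 midsection genes chosen in Pennellii, with the group mean and SD beside the 4 libraries. Tips lie between 2.33 and 3.78 and midsections between -0.53 and 0.14, and sufficient tip replicate 4 is the highest.

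The same contrast was computed in the Pennellii libraries, which the M82 fit had not used and which reached lower depth. A pair of columns from different groups were identical and both were left out, which left 14 libraries of 6225 to 13124725 counts; their reads were mapped to M82, going by the name of the deposited table. The interaction was called in 35 of 13450 genes (0.26%, edgeR adjusted p under 0.05), of which 0 were among the 177, and 1305 genes had an unadjusted p under 0.05; DESeq2 called 16. Of the 177, 162 were tested in Pennellii, and 102 of these had an interaction of the same sign (63.0%), against 50.5% of the 13188 genes tested in both species. By direction, the interaction was above 0 in 78 of 107 genes with a higher response in M82 tips (72.9%), where 62.3% of all genes were above 0. It was below 0 in 24 of 55 genes with a lower response (43.6%), where 37.7% of all genes were below 0. With RLE scaling, which moved the median interaction of all Pennellii genes from 0.64 to 0.04 on the log2 scale, these shares were 65.4% against 50.8% and 54.5% against 49.2%. Of the 16 named genes, 11 had the same sign in Pennellii as in M82 and 5 the opposite sign. Solyc02g083810.3.1 had the smallest Pennellii p, with an interaction of 5.39 ± 1.63 (log2, SE; edgeR adjusted p 0.125). Solyc10g086090.2.1, with the next smallest p, had the opposite sign to M82, at 3.97 ± 1.65 (edgeR adjusted p 0.359). The other 4 of opposite sign were Solyc05g041200.3.1 at -3.76 ± 2.22, Solyc11g020040.2.1 at -1.80 ± 1.41, Solyc01g097270.3.1 at 1.33 ± 1.41 and Solyc03g120475.1.1 at 1.11 ± 1.28. Solyc06g076800.3.1 had 3.05 ± 1.34 (edgeR adjusted p 0.407) and Solyc02g090210.3.1 had 0.14 ± 1.25 (edgeR adjusted p 0.994). None of the 16 was called in Pennellii, and whether M82 and Pennellii differed in these genes was not tested here.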

How the data were processed

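Transcript abundance in 16 M82 root libraries was compared between 4 groups of 4. Per the labels' protocols, libraries were made by BrAD-seq, a strand-specific 3' method, and read as single reads of 50 bases; FastQC, Bowtie 1.2.2, edgeR and limma are named per the submitters' processing notes. The authors deposited estimated counts, 1 per gene model and library; 7.57% of M82 values were fractional, in 21.5% of genes. What counted the reads, and against which build and annotation, is not given in the sources used here. All columns were assigned by the codes in the sample titles. A pair of Pennellii columns held identical values and neither was used.

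Estimated counts were rounded, scaled by TMM factors and filtered with filterByExpr (minimum count 10, minimum total 15). All 16 libraries entered 1 fit with 4 group means, tested by quasi-likelihood with robust dispersions (edgeR 4.0.16, R 4.3.3; Benjamini-Hochberg adjustment over all genes tested, threshold 0.05). Standard errors divide the size of the log2 change by the root of F. CPM values use TMM-scaled library sizes, ratios are of mean CPM, and log2 CPM values add 0.5. Pennellii libraries were fitted apart in the same way. Intervals of counting error are not given; with no molecular identifiers, reads are not separate molecules, so floors cover counting error only. The members and lists were chosen with earlier results of these data known. The text names, in each pattern, the 2 genes with the smallest interaction p among those with whole counts in every library and at least 10 counts in every library of at least 1 group; genes outside this rule are marked. Gene lists and tissue markers could not be matched to IDs and gave no result. As alternatives, scaling by RLE, DESeq2 1.42.0, voom (limma 3.58.1) with and without quality weights, other filters, only genes with whole counts, the replicate number as a block, and leaving out each library were tried.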

Additional observations from a re-analysis of the deposited data

Results flagged for a closer look

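The 177 genes differed in their phosphate response between tip and midsection by the interaction test itself, and so did the 16 named ones. On the log2 scale, tip minus midsection, their values above 0 were 5.68 for Solyc02g090210.3.1, 5.05 for Solyc06g076800.3.1, 3.85 for Solyc08g013670.3.1, 3.66 for Solyc07g040680.3.1, 3.35 for Solyc05g041200.3.1, 3.09 for Solyc11g020040.2.1, 2.69 for Solyc02g083810.3.1 and 1.84 for Solyc07g056540.3.1. Those below 0 were -3.12 for Solyc03g098010.3.1, -3.08 for Solyc10g086090.2.1, -2.80 for Solyc01g103390.3.1, -2.61 for Solyc01g097270.3.1, -2.34 for Solyc04g005290.3.1, -2.24 for Solyc05g015300.3.1, -2.17 for Solyc12g009480.2.1 and -1.09 for Solyc03g120475.1.1.

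Of 72 groups of 4 libraries examined for a library apart from the other 3, 5 held one, and chance gives about 1 in 20. Solyc01g103390.3.1 stood at 650.0 CPM in limiting tip replicate 2. The position score was 3.78 in sufficient tip replicate 4. Total counts stood apart in sufficient tip replicate 2 (34103546), limiting tip replicate 4 (9737420) and sufficient midsection replicate 3 (1084652).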

How the results depend on the processing

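All 16 named genes kept the direction of their interaction in 384 of 384 refits, and the call held in 362. DESeq2 called 514 genes in the interaction (296 higher and 218 lower in the tip), 507 in the tip response and 574 in the midsection response, and 175 of the 177 genes were among its interaction calls. Limma-voom called 224 in the interaction, 112 of them shared with the 177, 455 in the tip response, 672 in the midsection response and 3154 gaps at limiting phosphate. With quality weights it called 286 (179 higher, 107 lower), 1177 in the midsection response and 4293 gaps at limiting phosphate. RLE scaling, the other filters and the restriction to whole counts gave 149 to 219 interaction calls. Leaving out 1 library gave 100 to 289 calls, 69 to 153 higher and 31 to 144 lower in the tip, 173 to 287 in the tip response, 119 to 409 in the midsection response (409 without sufficient tip replicate 4; 119 to 167 without sufficient midsection replicate 4 or any 1 limiting midsection library), 4264 to 5055 gaps at sufficient and 1401 to 2447 at limiting phosphate; the cause was not tested. The share of called genes with a smaller gap at limiting phosphate stayed between 89.9% and 96.6%.

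With the replicate number as a block, 184 genes were called (115 higher, 69 lower), 152 of them shared with the 177. Correlations of the deviations of samples with the same number were small: 0 of 24 exceeded 0.1 (-0.03 to 0.08), although 18 were above 0, their median was 0.03 against -0.01 for other numbers, and a sample correlated best with its own of 4 numbers in 23 of 48 comparisons. The last is a hint of pairing from the data, which the labels do not state. In Pennellii, the interaction calls, 35 in all, became 80 with RLE scaling, 16 with DESeq2, 7 with the block, 10 when libraries under 100000 counts were dropped, and 29 to 114 without 1 library, the highest without limiting tip replicate 2. Depth limits genes of low level most in the shallowest M82 library, where 3 counts are 2.77 CPM.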

Other observations

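A pair of genes with a lower response in the tip are consecutive among the tested genes in the ID order of the table, Solyc06g062540.3.1 and Solyc06g062550.4.1, and they were the 1 such pair among the 177; they were singled out after their values were seen. Solyc06g062540.3.1 had means of 1.53 and 16.4 CPM in sufficient and limiting tips and 0.0929 and 68.8 CPM in sufficient and limiting midsections, and was called at both positions (edgeR adjusted p 0.0142 and 1.31e-06). Solyc06g062550.4.1 had means of 0.668 and 1.21 CPM in tips and 0.301 and 48.6 CPM in midsections, and was called in the midsection (edgeR adjusted p 0.000155) but not in the tip (edgeR adjusted p 0.775). Both had fractional counts in 9 of 16 libraries, so how far they share reads is unknown and their levels are uncertain. Their means in sufficient midsections, 0.0929 and 0.301 CPM, were below the floor of every library of that group, 0.330 to 2.77 CPM. The sizes of their midsection rises are therefore imprecise.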
